A study of Mus musculus with 6 samples.

Results

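The dendritic cell genes are 10 genes of conventional and plasmacytoid dendritic cells, taken by their symbols from a table of read counts with 48440 rows. They are *Flt3*, *Xcr1*, *Batf3*, *Zbtb46*, *Cd209a*, *Siglech*, *Itgae*, *Irf8*, *Ccr9*, and *Tcf4*. All 10 were found, each on 1 row, and all 10 were among the 18593 genes that passed the filter on low counts. The libraries came from the ipsilateral L3/4 DRGs of wild-type male mice after microinjection of virus into these ganglia on one side. The 3 libraries of the control group received AAV5-*Gfp*, an adeno-associated virus of serotype 5 that expresses green fluorescent protein. The other 3 libraries received AAV5-*V1* mixed with AAV5-*V2* (AAV5-*V1+V2*), which carry the variants V1 and V2 of *NIS-lncRNA*, a long noncoding RNA. Effects of the transcripts and of the virus preparation cannot be told apart. Every DRG compared here was therefore injected with virus, and each group differed in its virus preparation as well as in the transcript it carried. The text deposited with the data gives collection at 5 weeks and, for the same comparison, 4 weeks after microinjection. The promoter in the vectors, the age of the mice, and the number of mice in a library are not given in the sources used here.

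Dendritic cells take up antigen in tissues and present it to T cells. They arise from bone marrow progenitors under the receptor tyrosine kinase FLT3 and its ligand. Conventional type 1 cells (cDC1) cross-present antigen to CD8 T cells and depend on IRF8 and BATF3. Conventional type 2 cells (cDC2) mainly present to CD4 T cells, and plasmacytoid cells (pDC) are a source of type I interferon and depend on the E protein TCF4. Several of these genes are also used by other cells of a ganglion. *Irf8* is expressed by B cells and macrophages, *Itgae* and *Ccr9* by subsets of T cells, *Zbtb46* by endothelium, *Flt3* by sensory neurons, and *Tcf4* by neurons and glia.

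Sequence upstream of the start of transcription was looked at because 7 of these genes moved in the same direction. RefSeq promoters (GRCm38.p6) were at hand for 8 of the 10, all but *Itgae* and *Tcf4*, and the 250 bases before each start were searched on both strands. Of the 7 genes that moved, *Itgae* was therefore not searched. The motifs were the interferon-gamma activated site of STAT dimers (GAS, TTCNNNGAA), the interferon-stimulated response element (ISRE, GAAA followed by GAAA after any 2 bases), the composite site of ETS and IRF factors (EICE, GGAA followed by GAAA after any 2 bases), a PU.1 site (GAGGAAGT), an AP-1 site (TGANTCA), and the E-box (CANNTG). The first 3 can overlap one another. Of 32851 mouse promoters of this length, 7.02% hold the GAS, 2.98% the ISRE, 2.3% the EICE, 2.44% the PU.1 site, 6.75% the AP-1 site, and 66.2% the E-box. The promoters of *Irf8*, *Siglech*, and *Batf3* are shown here because they were the 3 with a GAS, and that of *Xcr1* because it had the second largest change and none of the first 5 motifs. Each is read from 5′ to 3′ on the strand of its gene and ends just before the start. Capitals mark the GAS, and E-boxes are left in lower case. The regions are chr8:120736108-120736357 on the plus strand for *Irf8*, chr7:55767934-55768183 on the plus strand for *Siglech*, chr1:191098164-191098413 on the plus strand for *Batf3*, and chr9:123862030-123862279 on the minus strand for *Xcr1*. The RefSeq start used for *Batf3* is not a transcript start in GENCODE M21.
Irf8: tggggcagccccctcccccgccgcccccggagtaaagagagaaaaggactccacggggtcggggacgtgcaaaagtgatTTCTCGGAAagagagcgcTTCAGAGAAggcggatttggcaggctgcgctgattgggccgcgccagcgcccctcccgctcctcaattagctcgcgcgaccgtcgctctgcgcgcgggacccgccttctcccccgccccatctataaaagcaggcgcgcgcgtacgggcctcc
Siglech: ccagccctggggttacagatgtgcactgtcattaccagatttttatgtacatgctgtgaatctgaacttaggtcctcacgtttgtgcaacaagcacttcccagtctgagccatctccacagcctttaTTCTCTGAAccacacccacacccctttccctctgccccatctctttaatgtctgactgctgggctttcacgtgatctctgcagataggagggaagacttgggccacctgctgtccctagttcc
Batf3: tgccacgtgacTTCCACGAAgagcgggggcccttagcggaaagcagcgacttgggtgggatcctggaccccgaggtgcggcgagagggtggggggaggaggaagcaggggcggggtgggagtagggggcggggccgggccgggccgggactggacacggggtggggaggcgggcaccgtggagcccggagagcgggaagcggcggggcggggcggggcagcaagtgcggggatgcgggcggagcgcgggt
Xcr1: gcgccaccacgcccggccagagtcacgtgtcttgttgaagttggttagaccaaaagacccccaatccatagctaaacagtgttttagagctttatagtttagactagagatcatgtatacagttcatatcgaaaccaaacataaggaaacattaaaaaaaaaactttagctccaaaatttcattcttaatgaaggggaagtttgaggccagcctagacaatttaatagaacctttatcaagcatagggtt
The *Irf8* promoter holds 2 GAS matches, whose first bases lie at -171 and -153 from the start. *Siglech* has 1 match at -123 and *Batf3* 1 at -239. The E-box was found in all 8 genes, for *Irf8* at a second RefSeq start and not in the sequence shown, and the AP-1 site in *Zbtb46* alone of these 8 genes. The ISRE, the EICE, and the PU.1 site were found in none of them, and the second start of *Irf8* had no GAS. These matches describe letters in the window and show no binding. They were counted per gene, with 9 promoters for the 8 genes, whereas the shares over all mouse promoters are per promoter.

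Of the 10 dendritic cell genes, 7 were higher in AAV5-*V1+V2* than in AAV5-*Gfp* DRGs, 3 did not pass the test, and 0 were lower. The 7 were *Irf8*, *Xcr1*, *Siglech*, *Itgae*, *Batf3*, *Cd209a*, and *Ccr9*. Among all genes tested, 10.1% were higher and 5.27% were lower by the same rule, namely that the Benjamini-Hochberg adjusted p of edgeR's quasi-likelihood test was below 0.05. At an unadjusted p under 0.05, 9 of the 10 were higher and 0 were lower, against 19.2% and 15.5% of all genes tested. DESeq2 called 8 of the 10 higher and 0 lower at an adjusted p under 0.05, against 12.9% and 8.64% of all genes. The median log2 fold change of the 10 genes was 1.35, against -0.0003 over all genes tested. For all 10, every AAV5-*V1+V2* library lay above every AAV5-*Gfp* library, as it did for 23.4% of all genes tested. In each of the 10, replicate 1 was the highest of the 3 AAV5-*V1+V2* libraries. In RNA from whole ganglia, more cells of a type cannot be told apart from more RNA per cell.

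**Figure D1:**
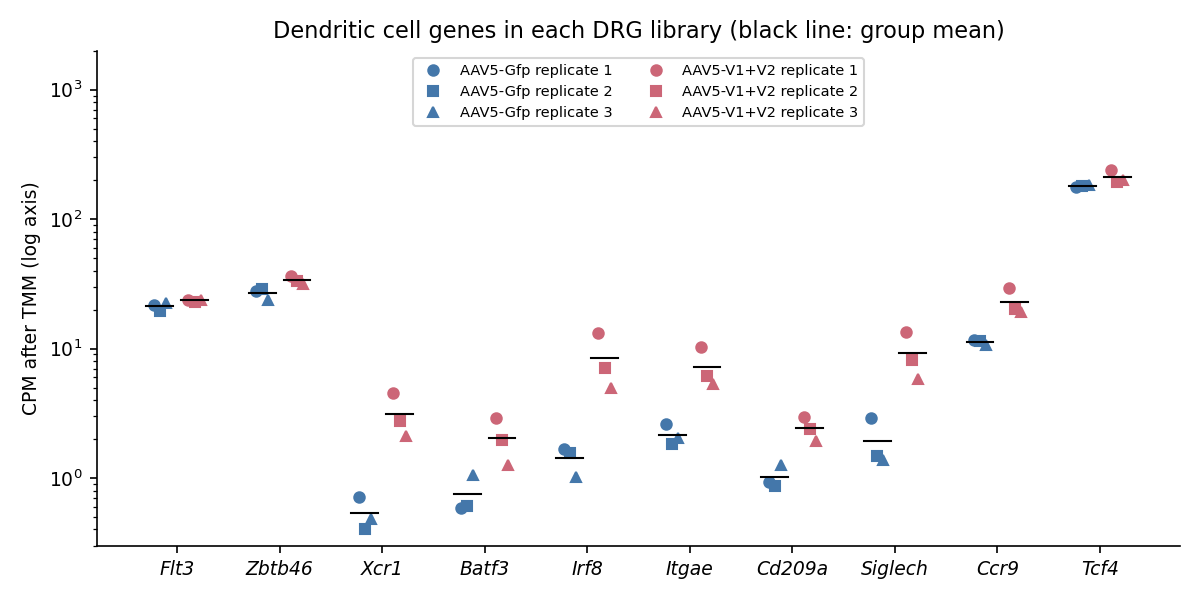
Level of each dendritic cell gene in the 6 libraries, in CPM after TMM normalization on a log axis, with 1 point per library and a black line at each group's mean. The AAV5-*V1+V2* points of *Xcr1*, *Irf8*, *Siglech*, and *Itgae* sit well above the AAV5-*Gfp* points, whereas those of *Flt3* and *Tcf4* are only just above them.

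*Xcr1* encodes the receptor for XCL1 and is the most restricted marker of cDC1. GENCODE M21 (GRCm38) places it on the minus strand of chromosome 9, from 123852315 to 123862029. AAV5-*Gfp* replicates 1 to 3 held 23, 14, and 15 *Xcr1* reads, and AAV5-*V1+V2* replicates 1 to 3 held 149, 92, and 72. The lowest treated library thus held over 3 times the reads of the highest control library. In CPM, where 1 unit is 1 read in 1000000 after TMM normalization, its mean was 0.532 ± 0.161 (SD, n = 3) in control and 3.13 ± 1.26 (SD, n = 3) in treated DRGs. This is a log2 fold change of 2.55 (SE 0.36, edgeR adjusted p = 0.0144).

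*Batf3* encodes the AP-1 family factor that maintains IRF8 in committed cDC1 cells, and lies on chromosome 1 from 191097847 to 191108945. Its counts were 19, 21, and 33 with AAV5-*Gfp* and 95, 65, and 43 with AAV5-*V1+V2*, in the order of the replicates. The groups came close to each other, at 1.06 CPM in AAV5-*Gfp* replicate 3 and 1.25 CPM in AAV5-*V1+V2* replicate 3. Its log2 fold change of 1.44 (SE 0.37, edgeR adjusted p = 0.0438) was the weakest call of the 7. It did not pass in limma-voom (adjusted p = 0.0589) or in edgeR with a replicate block (0.0595).

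*Itgae* encodes CD103, the integrin chain that binds E-cadherin, found on cDC1 cells and on resident T cells (chromosome 11, from 73090583 to 73147446). Its counts were 84, 63, and 64 with AAV5-*Gfp* and 337, 205, and 183 with AAV5-*V1+V2*. All 3 treated libraries were more than 2-fold above the control libraries. The log2 fold change was 1.75 (SE 0.28, edgeR adjusted p = 0.0155). *Haspin* lies within an intron of *Itgae* on the opposite strand and shares no exonic bases with it, and under its older symbol *Gsg2* it had at most 1 count in any library.

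*Irf8* encodes the transcription factor needed for cDC1 cells and expressed at high levels in pDC. It had the largest change of the 10 genes. Its counts were 54, 54, and 32 with AAV5-*Gfp* and 437, 236, and 169 with AAV5-*V1+V2*, so that the 2 groups were far apart, while the treated libraries spread over more than 2-fold. The level was 1.42 ± 0.346 CPM (SD, n = 3) against 8.43 ± 4.34 CPM (SD, n = 3), with a log2 fold change of 2.56 (SE 0.39, edgeR adjusted p = 0.0146). *Irf8* (chromosome 8, from 120736358 to 120756694) lies inside Gm20388, a gene model on the same strand that shares no exonic bases with it. Gm20388 itself had between 54711 and 71130 counts and a log2 fold change of 0.12 (SE 0.12, edgeR adjusted p = 0.509). How reads of such nested models were assigned is not given in the sources used here.

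*Cd209a* encodes the mouse lectin closest to DC-SIGN in name and is a marker of cDC2 and of dendritic cells derived from monocytes (chromosome 8, from 3743397 to 3748984). Control replicates 1 to 3 held 30, 30, and 39 reads, and the treated replicates held 97, 80, and 66, so the groups lay apart. The log2 fold change was 1.26 (SE 0.24, edgeR adjusted p = 0.0210). Its relatives form a cluster of similar genes, and their counts are uncertain where they share reads. Of 7 relatives listed, *Cd209h* was not analysed here, *Cd209b* and *Cd209e* were too low to test, and 1 of the other 4 was higher. This was *Cd209d*, with 8, 8, and 3 counts against 45, 27, and 22 (log2 fold change 2.26, SE 0.44, edgeR adjusted p = 0.0229). *Cd209c* had a log2 fold change of -0.56 (SE 0.21, adjusted p = 0.103) and *Cd209g* of 0.22 (SE 0.39, adjusted p = 0.720), by the same edgeR test.

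*Siglech* encodes a sialic acid-binding lectin of pDC that is also found on microglia and some macrophages (chromosome 7, from 55768178 to 55778925). Its counts were 94, 51, and 43 with AAV5-*Gfp* and 444, 274, and 200 with AAV5-*V1+V2*. AAV5-*Gfp* replicate 1 was the highest control library, and still held fewer than 1 in 2 of the reads of any treated library. The mean of 1.92 ± 0.860 CPM (SD, n = 3) in control rose to 9.19 ± 3.92 CPM in treated DRGs (SD, n = 3), a log2 fold change of 2.26 (SE 0.40, edgeR adjusted p = 0.0178).

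*Ccr9* encodes the receptor for CCL25, which guides lymphocytes and pDC to gut and thymus. Its counts were 373, 394, and 330 with AAV5-*Gfp* and 966, 668, and 655 with AAV5-*V1+V2*. Unlike *Xcr1* and *Siglech*, it was well counted in the control ganglia, where its 3 libraries varied little (11.2 ± 0.522 CPM, SD, n = 3). The log2 fold change was 1.03 (SE 0.17, edgeR adjusted p = 0.0159). GENCODE M21 places *Ccr9* on chromosome 9 from 123678439 to 123784330 and overlaps it with 6 other gene models. Gm17200 shares 269 exonic bases with it on the same strand and had at most 25 counts in a library. AC165425.1 shares 1932 exonic bases on the opposite strand and was not analysed here. Without knowledge of the strand setting of the counting, reads of *Ccr9* and of this gene cannot be told apart. *Lztfl1*, which overlaps it on the opposite strand, shares no exonic bases and had a log2 fold change of -0.35 (SE 0.13, edgeR adjusted p = 0.0977).

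The 3 genes that did not pass the test had the highest levels per kb of exon in control ganglia. *Tcf4*, the E protein on which pDC identity rests (chromosome 18, from 69343356 to 69689079), had 5765, 6215, and 5774 counts with AAV5-*Gfp* and 7889, 6425, and 6917 with AAV5-*V1+V2*. Its log2 fold change was 0.22 (SE 0.09, edgeR adjusted p = 0.137). *Flt3* (chromosome 5, from 147330741 to 147400489), the receptor through which dendritic cells expand, had 699, 680, and 701 counts against 787, 766, and 819. At 0.15 (SE 0.08, edgeR adjusted p = 0.209), it had the smallest change of the 10. *Zbtb46* (chromosome 2, from 181387762 to 181459426), the zinc finger factor that separates conventional dendritic cells from other myeloid cells, had 898, 992, and 736 counts against 1203, 1111, and 1080. Its log2 fold change was 0.34 (SE 0.10, edgeR adjusted p = 0.0563), and it passed in 4 of 14 alternatives, among them DESeq2 (adjusted p = 0.0285) and edgeR with the replicate block (0.0351). For each of these 3 genes the groups did not overlap, although the distances were small. Every AAV5-*V1+V2* library lay above every AAV5-*Gfp* library for 23.4% of all genes tested.

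**Figure D2:**
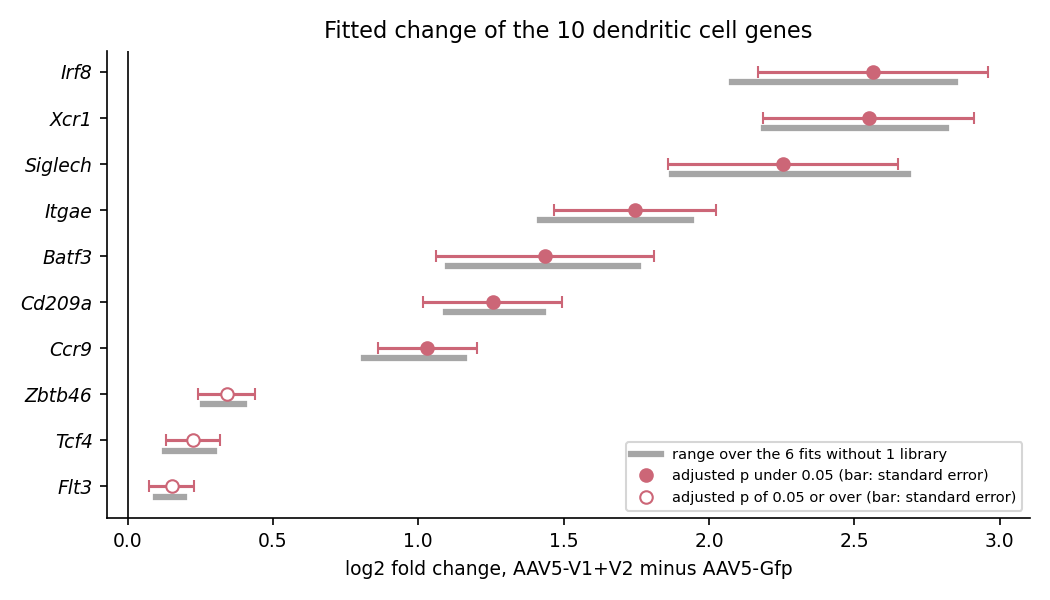
Log2 fold change (AAV5-*V1+V2* minus AAV5-*Gfp*) of the 10 dendritic cell genes with its standard error, filled where the adjusted p was under 0.05. Grey bars give the range over the 6 fits that each left out 1 library, and none of them reaches 0.

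The calls depended on the control libraries. Without AAV5-*Gfp* replicate 2 or without replicate 3, 0 of the 10 genes passed edgeR's test after adjustment, although 8 were higher at an unadjusted p under 0.05 in each fit, as were 2916 and 2932 of all genes. Without AAV5-*Gfp* replicate 1, 2 passed (*Xcr1* and *Siglech*). In these 3 fits, 12, 15, and 257 of all genes were higher (without replicate 2, 3, and 1), against 1872 with all libraries. Leaving out AAV5-*V1+V2* replicate 1, 2, or 3 left 6, 5, and 8 of the 10 genes higher, and 1862, 1020, and 2474 of all genes. Without AAV5-*V1+V2* replicate 1, the highest library, *Irf8* had a log2 fold change of 2.08, *Xcr1* of 2.19, and *Siglech* of 1.87, and all 3 passed.

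Levels were set against each other only as CPM per kb of exonic sequence (GENCODE M21, all exons of a gene merged), with the reservation that *Ccr9* and *Tcf4* have many annotated exons. With AAV5-*Gfp*, *Tcf4* came first at 6.61 ± 0.128 CPM per kb (SD, n = 3). *Flt3* (3.44 ± 0.237 CPM per kb) and *Zbtb46* (3.14 ± 0.318 CPM per kb) followed with ranges that overlapped, and *Ccr9* was at 1.09 ± 0.0508 CPM per kb. *Cd209a*, *Siglech*, *Itgae*, and *Batf3* lay between 0.470 and 0.641 CPM per kb on average and could not be ordered. *Irf8* (0.201 ± 0.0490 CPM per kb) and *Xcr1* (0.120 ± 0.0361 CPM per kb) were lowest, and their ranges overlapped as well. With AAV5-*V1+V2*, *Tcf4* again stood apart at 7.72 ± 0.909 CPM per kb. Below it, each neighbour overlapped the next, from *Zbtb46* (3.97 ± 0.302 CPM per kb) and *Flt3* (3.82 ± 0.0829 CPM per kb) over *Siglech* (2.72 ± 1.16 CPM per kb) and *Ccr9* (2.23 ± 0.552 CPM per kb) down to *Xcr1* (0.703 ± 0.282 CPM per kb). *Irf8*, at 1.20 ± 0.615 CPM per kb, was still the second lowest.

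Dividing 1 gene's count by another's within a library removes the library's depth. A set of 8 such ratios was computed, chosen after the values of these genes were seen. The ratio of *Siglech* to *Xcr1*, a pDC and a cDC1 gene, was 4.09, 3.64, and 2.87 in the control and 2.98, 2.98, and 2.78 in the treated replicates 1 to 3. The 2 groups overlapped, and the mean log2 ratio differed by -0.26 (exact two-sided permutation test, p = 0.3). The ratio of *Xcr1* to *Cd209a*, a cDC1 and a cDC2 gene, was 0.767, 0.467, and 0.385 with AAV5-*Gfp* and 1.54, 1.15, and 1.09 with AAV5-*V1+V2*. This ratio was higher in every treated library than in any control library. The difference was 1.27 on the log2 scale (exact two-sided permutation test, p = 0.1, and 0.114 adjusted over the 8 ratios). The counts do not rank the 2 genes, which differ in exonic length. Per kb of exon with AAV5-*V1+V2*, *Xcr1* (0.471 to 1.02 CPM per kb) stayed below *Cd209a* (1.22 to 1.86 CPM per kb). No smaller p than 0.1 is possible with 3 libraries against 3.

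*Irf8* was compared in this way with *Spi1*, the gene of PU.1, its partner on ETS and IRF composite sites. This ratio was 0.331, 0.314, and 0.262 with AAV5-*Gfp* and 0.509, 0.590, and 0.491 with AAV5-*V1+V2*, without overlap. Against *Cd79b*, a chain of the B cell receptor, *Irf8* had ratios of 0.871, 1.42, and 0.821 in control and of 0.653, 0.670, and 0.522 in treated libraries. The ratio of *Xcr1* to the T cell gene *Cd3e* was 1.15, 1.56, and 2.50 in control and 0.519, 0.736, and 0.610 in treated libraries. Both of these ratios were thus lower in every treated library. Relative to the macrophage gene *C1qa*, *Xcr1* had ratios of 0.0431, 0.0264, and 0.0495 with AAV5-*Gfp* and of 0.0687, 0.0499, and 0.0570 with AAV5-*V1+V2*. Here AAV5-*V1+V2* replicate 2 was barely above AAV5-*Gfp* replicate 3. *Itgae* had ratios of 0.503, 0.512, and 0.753 to its partner chain *Itgb7* with AAV5-*Gfp* and of 0.408, 0.479, and 0.462 with AAV5-*V1+V2*, and *Irf8* to *Batf3* had 2.84, 2.57, and 0.970 against 4.60, 3.63, and 3.93. Each of these 6 ratios had an exact two-sided permutation p of 0.1 (0.114 adjusted over 8).

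**Figure D3:**
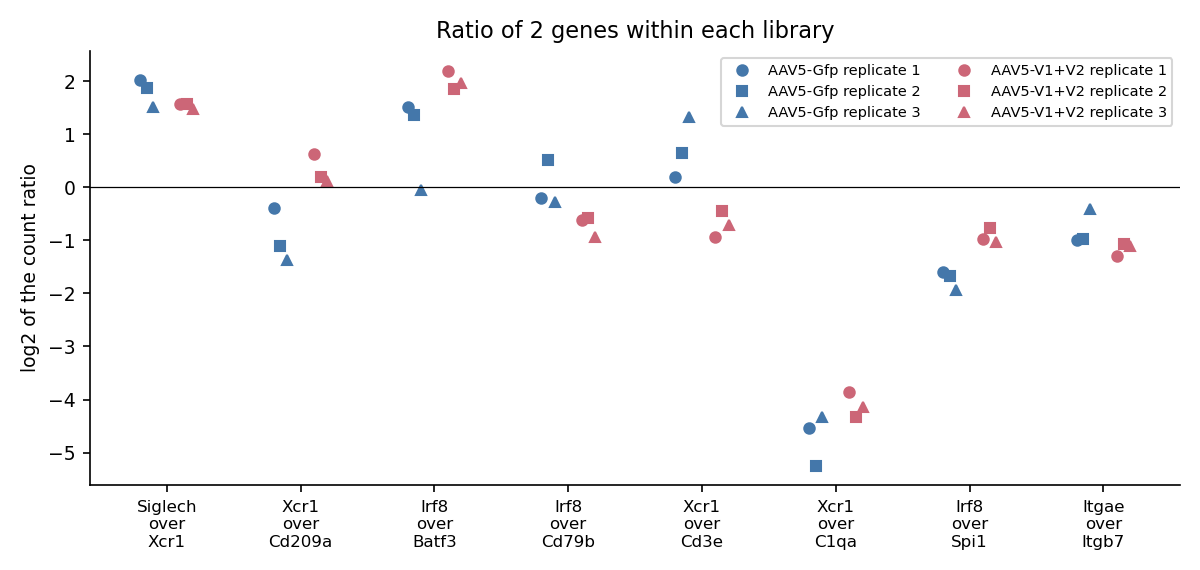
Log2 of the ratio of counts of 2 genes in each library, for 8 pairs. *Siglech* over *Xcr1* overlaps between the groups, whereas *Xcr1* over *Cd209a* is higher in the 3 AAV5-*V1+V2* libraries than in the 3 AAV5-*Gfp* libraries. Counts are not divided by exonic length, so the side of 0 does not rank the 2 genes of a pair.

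Ligands and partners of these receptors and factors were listed by hand (14 genes), and 12 were tested. Of these, 6 were higher and 1 was lower, against 10.1% and 5.27% of all genes tested. *Xcl1*, the ligand of XCR1, had 10, 1, and 7 counts with AAV5-*Gfp* and 58, 21, and 18 with AAV5-*V1+V2*. Its log2 fold change of 2.37 (SE 0.72) did not pass (adjusted p = 0.0643 from edgeR's test). *Ccl25*, the ligand of CCR9, had a log2 fold change of 0.15 (SE 0.10, adjusted p = 0.326). *Cdh1*, which encodes the E-cadherin bound by CD103, was the lower gene, at 142 ± 10.2 CPM in control and 105 ± 9.71 CPM in treated DRGs (SD, n = 3 each) and with a log2 fold change of -0.43 (adjusted p = 0.0265). *Itgb7*, the β chain that pairs with CD103, was higher (log2 fold change 2.11, SE 0.36, adjusted p = 0.0168). *Tyrobp*, the signalling adaptor of SIGLECH, had a log2 fold change of 2.01 (SE 0.35, adjusted p = 0.0172). Of the chains of the GM-CSF receptor, which drives dendritic cells from monocytes, *Csf2rb* had a log2 fold change of 2.23 and *Csf2ra* of 1.17, and both were higher. Their ligand *Csf2* had at most 2 counts in any library and was not tested, and *Flt3l* was not analysed here. *Junb*, a partner of BATF3, was higher (0.89, adjusted p = 0.0492), whereas *Jun* (0.14, adjusted p = 0.279) and *Jund* (0.58, adjusted p = 0.105) did not pass. Among the E proteins related to TCF4, *Tcf3* was higher (0.62, adjusted p = 0.0353) and *Tcf12* did not pass (0.18, adjusted p = 0.153). The part of other leukocytes in the changes of *Itgb7*, *Tyrobp*, *Csf2rb*, and *Csf2ra* was not tested. Adjusted p-values in this and the next paragraphs are from edgeR's quasi-likelihood test over all genes tested.

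In all, 83 of 90 genes on 7 lists of dendritic cell biology, the ligands and partners among them, were tested, and 48 were higher and 4 lower. Among all genes tested, 10.1% were higher and 5.27% lower. At an unadjusted p under 0.05 in edgeR's test, these shares were 19.2% and 15.5%. Of 12 further cDC1 genes, 8 were higher and 1 lower, with a median log2 fold change of 0.85. *Gcsam*, a signalling protein of germinal centre B cells as well as cDC1 cells, had 19, 15, and 20 counts against 106, 86, and 61 (log2 fold change 2.19, SE 0.29, adjusted p = 0.0144). *Wdfy4*, which cDC1 cells need for cross-presentation and which B cells also express, had a log2 fold change of 2.20 (SE 0.32, adjusted p = 0.0144). *Rab7b* had one of 0.86 (SE 0.13, adjusted p = 0.0147). *Clec9a*, the receptor by which cDC1 cells sense dead cells, was chosen after its values were seen and had 148, 183, and 125 counts against 270, 232, and 225 (log2 fold change 0.65, SE 0.15, adjusted p = 0.0342). The lower gene was *Cadm1*, also chosen afterwards, an adhesion molecule that was abundant in control ganglia at 815 ± 90.1 CPM (SD, n = 3) and had a log2 fold change of -0.53 (adjusted p = 0.0293). The part of neurons in the change of *Cadm1* was not tested.

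Of 12 cDC2 genes, 7 were higher and the others did not pass, with 9 higher at an unadjusted p under 0.05, and the median log2 fold change was 1.26. The shares over all genes tested were 10.1% higher and 5.27% lower, and 19.2% higher at that unadjusted p in edgeR's test. *Irf4*, the factor of cDC2 and of plasma cells, had 85, 73, and 66 counts in AAV5-*Gfp* and 577, 352, and 394 in AAV5-*V1+V2* libraries (log2 fold change 2.53, SE 0.23, adjusted p = 0.00623). *Itgax*, which encodes CD11c, had a log2 fold change of 3.14 (SE 0.40, adjusted p = 0.0139), and *Clec4a2* of 1.23 (SE 0.19, adjusted p = 0.0153). Of 15 pDC genes, 9 were higher and 2 lower, with a median of 1.69. *Tlr7*, a sensor of single-stranded RNA, had a log2 fold change of 1.63 (SE 0.21, adjusted p = 0.0140). The part of other leukocytes in the changes of *Itgax*, *Clec4a2*, and *Tlr7* was not tested. *Spib*, a transcription factor of pDC and B cells, had one of 3.01 (SE 0.41) and *Ly6d*, a surface marker of the same cells, one of 3.50 (SE 0.49), both with an adjusted p of 0.0144. The lower genes, *Pacsin1* (-0.41) and *Paqr5* (-0.51), were named after their values were seen, and *Pacsin1* is also a neuronal endocytosis gene.

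Genes of dendritic cell maturation are induced when the cells meet danger signals and leave for lymph nodes. Of 16 tested, 11 were higher and the others did not pass, with 14 higher at an unadjusted p under 0.05, and the median log2 fold change was 2.05. Over all genes tested, 10.1% were higher, and 19.2% at that unadjusted p in edgeR's test. *Cd80* and *Cd86*, the ligands of CD28, had log2 fold changes of 2.40 (SE 0.34, adjusted p = 0.0144) and 2.02 (SE 0.32, adjusted p = 0.0155). *Traf1*, an adaptor of TNF receptors, had a log2 fold change of 2.08 (SE 0.33, adjusted p = 0.0154). The part of other leukocytes, such as B cells and macrophages, in the changes of *Cd80*, *Cd86*, and *Traf1* was not tested. *Ccr7*, the receptor that directs mature dendritic cells to lymph nodes and that naive lymphocytes also carry, was chosen after its values were seen. It had 22, 10, and 15 counts against 295, 129, and 83 (log2 fold change 3.39, SE 0.56, adjusted p = 0.0165). Of 12 transcription factors of dendritic cell development, 6 were higher and the others did not pass, with 10 higher at an unadjusted p under 0.05. *Ikzf1* (2.29), *Bcl11a* (2.08), and *Runx3* (1.60) had the smallest p-values, and all 3 act in lymphocytes as well.

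**Figure D4:**
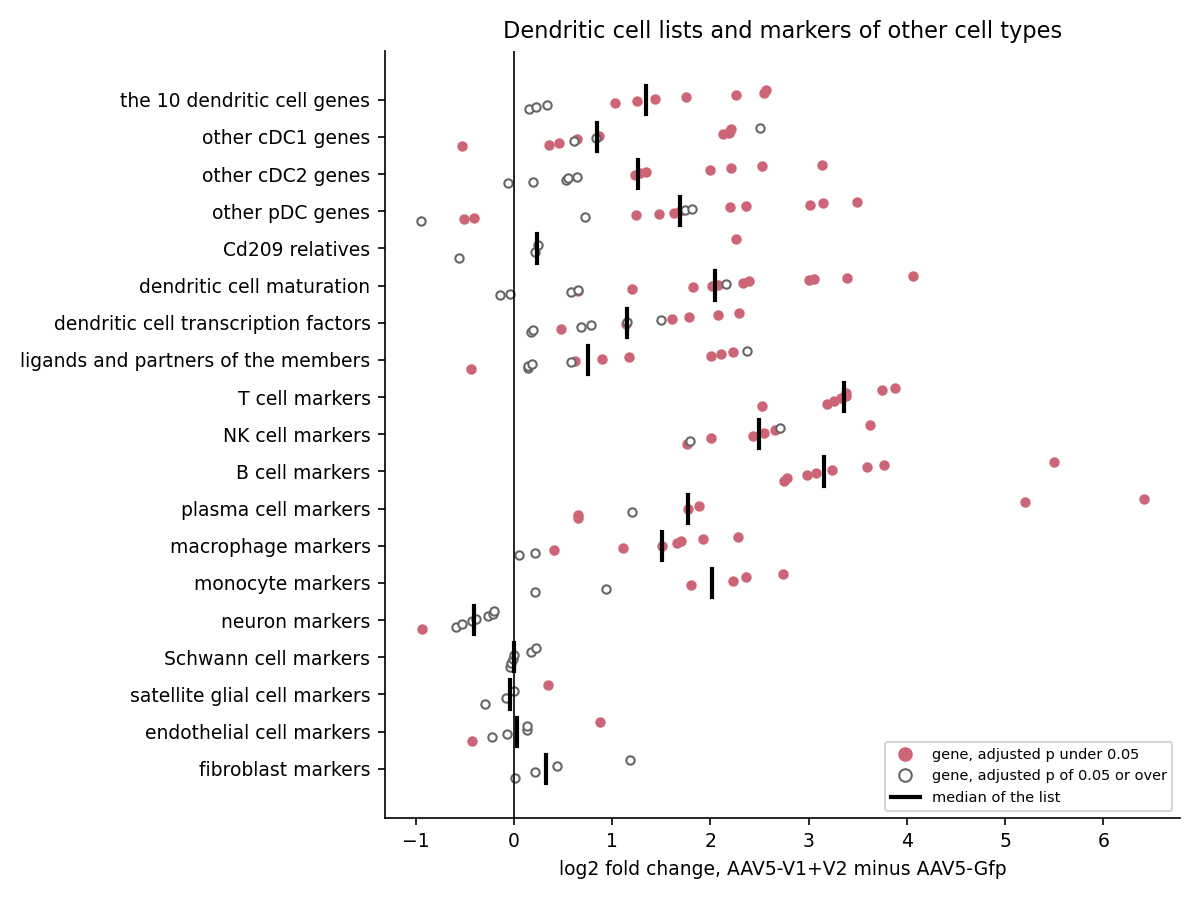
Log2 fold change (AAV5-*V1+V2* minus AAV5-*Gfp*) of each tested gene of the dendritic cell lists and of marker lists for other cell types, filled where the adjusted p was under 0.05, with a black line at the median of each list. The medians of the T and B cell markers, 3.36 and 3.16, lie to the right of the median of the 10 dendritic cell genes at 1.35.

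Markers of other leukocytes moved with the dendritic cell genes. For comparison, 10.1% of all genes tested were higher and 5.27% lower. All 8 T cell markers were higher, with a median log2 fold change of 3.36, among them *Cd28* (3.26), *Cd5* (3.19), and *Cd4* (3.33). Their summed level lay between 4.85 and 11.4 CPM with AAV5-*Gfp* and between 46.4 and 99.3 CPM with AAV5-*V1+V2*. All 8 B cell markers were higher (median 3.16, from 12.5 to 20.4 CPM and from 96.4 to 238 CPM), led by *Ms4a1* (5.49), *Cd79b* (3.24), and *Cd22* (3.77). The leading genes of the other lists were *Jchain* (6.41), *Mzb1* (5.20), and *Xbp1* (0.65) for plasma cells and *Prf1* (2.01), *Klre1* (3.62), and *Klrd1* (2.44) for NK cells. For macrophages they were *C1qb* (1.70), *C1qa* (1.93), and *Adgre1* (1.66), and for monocytes *Ly6c2* (2.37) and *Plac8* (2.74), all of them higher. *Ly6c2* was also counted among the pDC genes above. Of 7 plasma cell markers 6 were higher (57.6 to 65.8 and 263 to 310 CPM), of 8 NK cell markers 6 (1.93 to 3.78 and 8.13 to 20.7 CPM), of 9 macrophage markers 7 (188 to 203 and 300.1 to 501 CPM), and of 6 monocyte markers 4 (53.4 to 58.5 and 91.9 to 193 CPM). Among these lists, counts of 0 in a control library occurred in 2 genes, both NK cell markers. As with the dendritic cell genes, AAV5-*V1+V2* replicate 1 had the highest sum of each of these 6 lists. *Irf8*, *Itgae*, *Ccr9*, and *Siglech* are expressed by cells of these lists, and the part of such cells in their changes was not tested.

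Markers of neurons and glia differed in another way. By the same rule, 10.1% of all genes tested were higher and 5.27% lower. At an unadjusted p under 0.05 in edgeR's test, these shares were 19.2% and 15.5%. None of the 8 neuron markers was higher and 1 was lower (*Rbfox3*, log2 fold change -0.93, SE 0.19, adjusted p = 0.0256), while *Scn10a* (-0.59, adjusted p = 0.0542) and *Snap25* (-0.53, adjusted p = 0.0585) did not pass and 4 were lower at an unadjusted p under 0.05. Their summed level was 5703 to 6126 CPM with AAV5-*Gfp* and 3586 to 5125 CPM with AAV5-*V1+V2*, lowest in AAV5-*V1+V2* replicate 1. The 6 Schwann cell markers (3490 to 4242 and 3704 to 4101 CPM) and the 4 satellite glial cell markers (478 to 565 and 465 to 589 CPM) overlapped between the groups in their sums, and of these 10 genes only *Slc1a3* passed (log2 fold change 0.35, adjusted p = 0.0391). Endothelial markers, of interest for *Zbtb46*, overlapped between the groups in their sums, at 150.2 to 158 CPM and 151 to 183 CPM. *Pecam1* was higher (log2 fold change 0.88) and *Flt1* lower (-0.42). *Tek*, at -0.22 (adjusted p = 0.101), and the other markers on this list did not pass. The part of leukocytes in the change of *Pecam1* was not tested. Of the 4 fibroblast markers none passed, with *Pdgfra* at 0.43 (adjusted p = 0.0520) and *Col1a1* at 1.18 (adjusted p = 0.0549), and 2 were higher at an unadjusted p under 0.05. The fibroblast sums did not overlap, at 648 to 857 CPM with AAV5-*Gfp* and 913 to 1325 CPM with AAV5-*V1+V2*. As for the leukocyte lists, AAV5-*V1+V2* replicate 1 had the highest fibroblast sum. The part of neurons and glia in the values of *Tcf4* and *Flt3* was not tested.

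**Figure D5:**
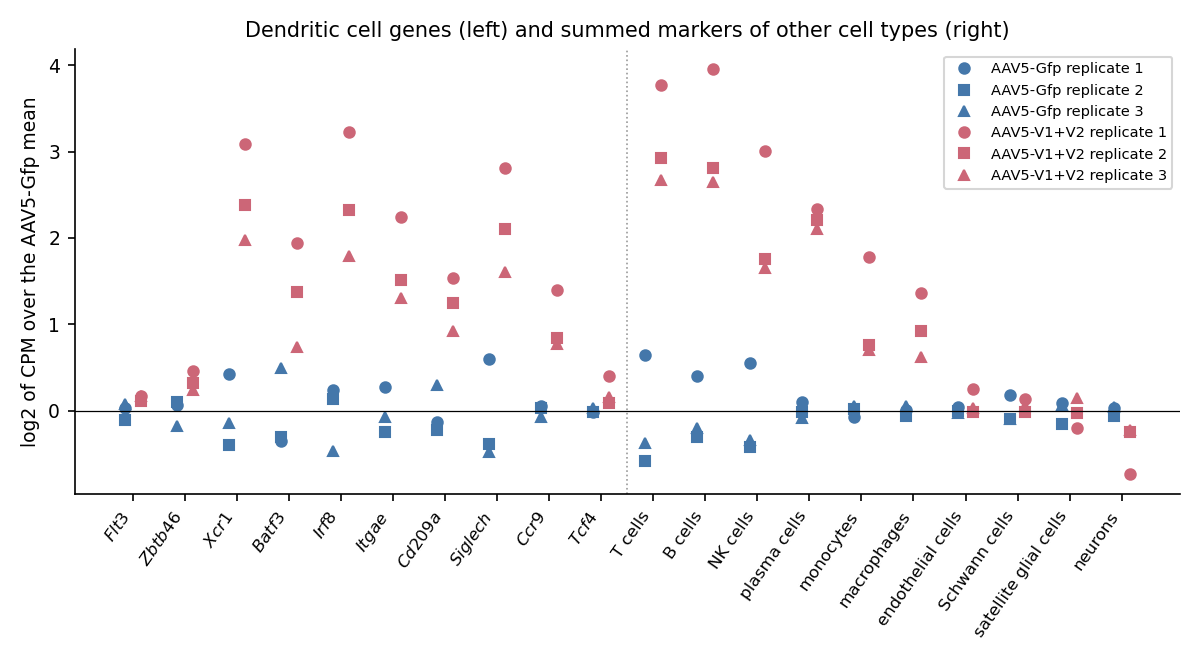
Log2 of the level in each library over the AAV5-*Gfp* mean, for each dendritic cell gene (left of the dotted line, CPM) and for summed markers of other cell types (right, CPM). Circles mark replicate 1, and in AAV5-*V1+V2* this library is the highest for all 10 dendritic cell genes and for T, B, NK, and plasma cells, monocytes, and macrophages, and the lowest for neurons. Among the AAV5-*V1+V2* libraries it is also the highest for endothelial and Schwann cells and the lowest for satellite glial cells.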

How the data were processed

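Microinjected DRGs were sequenced as 6 libraries, assigned to AAV5-*Gfp* (n = 3) or AAV5-*V1+V2* (n = 3) by their titles. The kit was a stranded one for total RNA. The values the authors deposited are read counts by gene symbol, not normalized, and the submitters' processing notes name the builds GRCm38 and mm10. The aligner, the counter, its annotation, and its use of strand are not given in the sources used here. Libraries held 32025612 to 34764282 counts. Libraries of a group differed by chi-square values of 8.87 to 52.9 per degree of freedom, well above sampling noise.

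Low genes were removed with filterByExpr, TMM factors were computed, and edgeR 4.0.16 (R 4.3.3) was used for the quasi-likelihood test of the 2 groups, with Benjamini-Hochberg adjusted p-values over all genes tested and 0.05 as the limit. The SE of a log2 fold change was its size over the root of the F statistic. The code was tested on simulated data. As no label says that replicates were separate mice, p-values measure only the spread between these samples, which may be technical.

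The 10 genes and the lists of other genes, compiled by hand, were chosen with earlier results of these data known. By rule the text names the 10 genes, all ligands and partners, and from each other list up to 3 genes with the smallest p, and says where a gene was chosen after its values were seen. Of these, the other markers of Schwann cells and satellite glia and 1 fibroblast marker are given only in counts or sums. Of the genes this rule names, 1 is not reported here. The 14 alternatives were 3 other normalizations, no filter, DESeq2 1.42.0, limma-voom (limma 3.58.1), robust empirical Bayes, a replicate block, and the omission of each library. Promoters came from RefSeq and gene models from GENCODE M21.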

Additional observations from a re-analysis of the deposited data

How the results depend on the processing

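Leaving out 1 library moved the counts most. Over the 6 fits with 1 library omitted, 12 to 2474 genes were higher and 0 to 1446 lower (1872 and 980 with all libraries), 0 to 8 of the 10 dendritic cell genes were higher (7 with all), and 0 to 58 genes of the 7 dendritic cell lists were higher and 0 to 5 lower (48 and 4 with all). Without AAV5-*Gfp* replicate 2 or 3, edgeR gave 12 and 15 higher genes and 0 in the other counts, against 2916 and 2932 genes higher and 2029 and 1815 lower at an unadjusted p under 0.05. For genes of the lists, 62 were then higher and 4 lower at that p. Without AAV5-*V1+V2* replicate 2, 1020 genes were higher and 150 lower, and 0 list genes were lower (4 at an unadjusted p). The cause was not tested. DESeq2 called 1606 genes lower, and the cause was not tested. In the other 8 alternatives, 6 to 8 of the 10 dendritic cell genes were higher. All 10 genes kept their direction in all 14 alternatives. The replicate numbers were not used to pair the libraries in the main fit. Deviations of same-numbered libraries from their group means correlated at 0.036, 0.0658, and 0.107, and AAV5-*V1+V2* replicate 1 correlated more with AAV5-*Gfp* replicate 2 (0.0433). AAV5-*V1+V2* replicates 2 and 3 each correlated most with the AAV5-*Gfp* library of the same number. With the replicate block 7 of the 10 genes were higher, with *Zbtb46* in place of *Batf3*. In AAV5-*Gfp* libraries *Xcr1* had 14 to 23 counts, and how depth limits the calls was not tested.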
